A study of Mus musculus with 8 samples.

Results

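The sites described here are G9a peaks that were called in rescued knockout cells and at which the wild-type list had no G9a peak. They were chosen by 2 measured values, the score of the rescue peak and its lack of overlap with any wild-type G9a peak. A rescue peak entered with a score of at least 40 on chromosomes 1 to 19, outside chromosome 6 from 120 to 130 Mb and chromosome 13 from 110 to 120 Mb. The score comes from the authors' peak caller and is -10 times the log10 of a peak's p, so 40 stands for p = 0.0001. Of the 83721 rescue peaks, 17690 reached that score. Of these, 41 lay on X or Y and 2203 in the left-out blocks, which left 15446. Among the 15446, 5883 (38.1%) overlapped no wild-type peak and are called rescue-only, and 9563 overlapped at least 1 and are called shared. That share follows from the rule and is a description.

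All samples came from TT2, a mouse embryonic stem cell line derived from a C57BL/6 female and a CBA male per the labels. G9a was profiled by ChIP-seq in wild-type TT2 cells (1 library) and in TT2 cells lacking G9a and GLP and given back wild-type G9a (1 library). By their label the rescued cells still lacked GLP. How the added G9a was expressed, and whether these cells were 1 clone, are not given in the sources used here. Ezh2 was profiled in wild-type cells (2 libraries, numbered 0 and 1) and in the G9a-/- GLP-/- cells without rescue (1 library). That knockout library is assigned by its title; its source label names TT2 alone. Peak lists cannot show whether the genotypes are as labelled. No G9a library of the unrescued knockout is analysed here, so the background of the G9a calls in these cells was not measured. With 1 library for each G9a group there is no test between wild type and rescue. The lists give no read counts, which leaves sequencing depth unknown, and a peak that is missing from the wild-type list may be a weak peak below its threshold.

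G9a and GLP are related enzymes that methylate lysine 9 of histone H3. They work mainly as a pair, and the dimethyl mark they place covers broad stretches of silent chromatin. Ezh2 is the enzyme of Polycomb repressive complex 2; it methylates lysine 27 of the same histone, and the complex silences developmental genes in embryonic stem cells. G9a and its mark have been linked to recruitment of that complex, which is why the Ezh2 lists are set beside the G9a sites here. No annotation or sequence of the mm9 build was used, so sites are given by mm9 position and without gene names.

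Rescue-only sites tended to score lower than shared peaks, within a set that the rule limits to scores of at least 40. Their median score was 49.21 (quartiles 43.63 and 60.43, highest 288.11), against 63.92 (49.01 and 95.86, highest 3201.3) for shared peaks. At 100 or more there were 263 rescue-only peaks (4.47% of them) and 2211 shared peaks (23.1%). The share of rescue peaks without a wild-type partner fell with each step in score. It was 56.0% (1870 of 3338) between 40 and 45, 44.9% (1293 of 2878) between 50 and 60, 22.0% (314 of 1428) between 80 and 100, and 5.56% (59 of 1062) at 150 or more. Peaks of higher score were also wider, and a wider peak is more likely to touch a wild-type peak, so this fall is a description. Below the threshold, 50823 of the 63404 rescue peaks in the same parts of the genome had no wild-type overlap. In total the rescue-only peaks covered 4.38 Mb and the shared peaks 9.52 Mb.

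**Figure D1:**
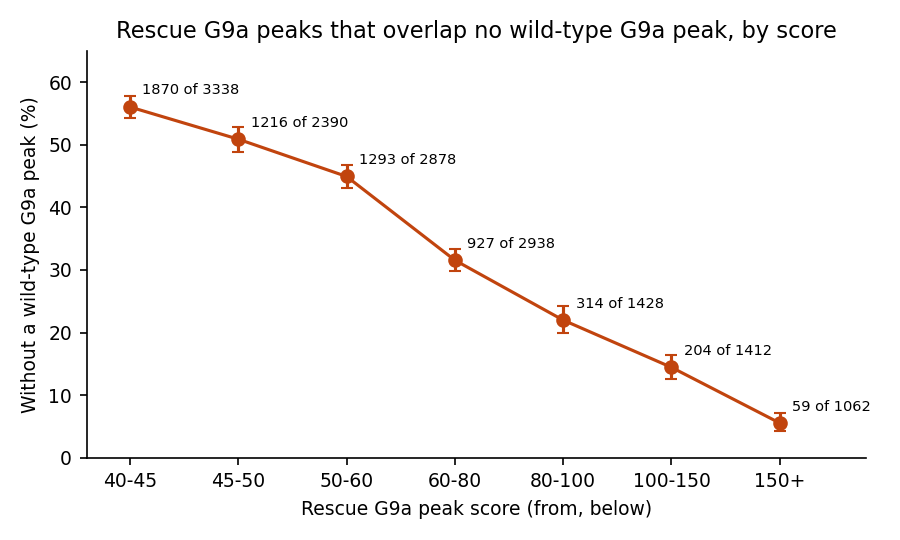
Percentage of rescue G9a peaks that overlap no wild-type G9a peak (y axis) in 7 ranges of rescue score (x axis), with the counts beside each point. Bars are exact binomial 95% intervals that treat peaks as independent; the share goes from 56.0% in the lowest range to 5.56% in the highest.

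Peaks on either side of the threshold differed little in score. Just inside lay chr14:114174842-114175360 (score 40), chr18:38227098-38227845 (40) and chr11:19613164-19614591 (40.01). Just outside, all at 39.99, lay chr11:26060800-26061893, chr12:74165062-74165488 and chr14:9549417-9549904. The overlap condition also had near cases: 84 rescue-only peaks had a wild-type peak within 50 bp, and 74 shared peaks overlapped one by 50 bp or less. The median overlap of a shared peak was 679 bp.

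The 10 highest-scoring rescue-only peaks were on 8 chromosomes. The highest, on chr10:28862154-28863438, scored 288.11 and lay 53001 bp from the nearest wild-type G9a peak. It shared 291 bp with an Ezh2 peak of wild-type library 1 (Ezh2 score 211.32). The next were chr13:22131874-22132938 (score 257.85, 69264 bp from wild-type G9a) and chr3:8507514-8509870 (251.54, 37738 bp). After them came chr10:80499859-80500978 (242.9, 61712 bp) and chr11:90524549-90527524 (238.75, 5021 bp). chr9:71763514-71765294 followed with a score of 233.87, and chr4:91041318-91043882 with 232.73. The chromosome 4 peak was the other of these 10 with Ezh2, sharing 578 bp with a library 1 peak of score 96.49. The remaining peaks were chr6:84842909-84844235 (226.78), chr12:93643789-93644642 (220.65) and chr3:89572905-89574278 (220.08). Of the 10, 3 had a wild-type G9a peak within 10 kb, as had 44.9% of the 263 rescue-only peaks of score 100 or more and 55.2% of all rescue-only peaks. Those 263 lay a median of 11912 bp from wild-type G9a, and 58 of them (22.1%) were over 50 kb away.

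Rescue-only peaks were narrower than shared peaks of the same score. Score and width rise together, so shared peaks were weighted to the score distribution of the rescue-only peaks in 20 score ranges. After weighting, the median score was 49.21 in both classes. The median width was 693 bp for rescue-only peaks (quartiles 551 and 868; exact 95% interval of the median 685 to 700) and 765 bp for shared peaks (607 and 982). The difference was -72 bp. It had the same direction in each of the 7 score ranges. Between 40 and 45 the medians were 594 bp and 672 bp, and at 150 or more they were 1195 bp and 1374 bp. The quartile ranges of the classes overlapped in every range. Width is not independent of the rule, because a wider peak is more likely to touch a wild-type peak, so these values describe the classes. Without weighting, the shared peaks had a median of 884 bp and the difference was -191 bp.

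**Figure D2:**
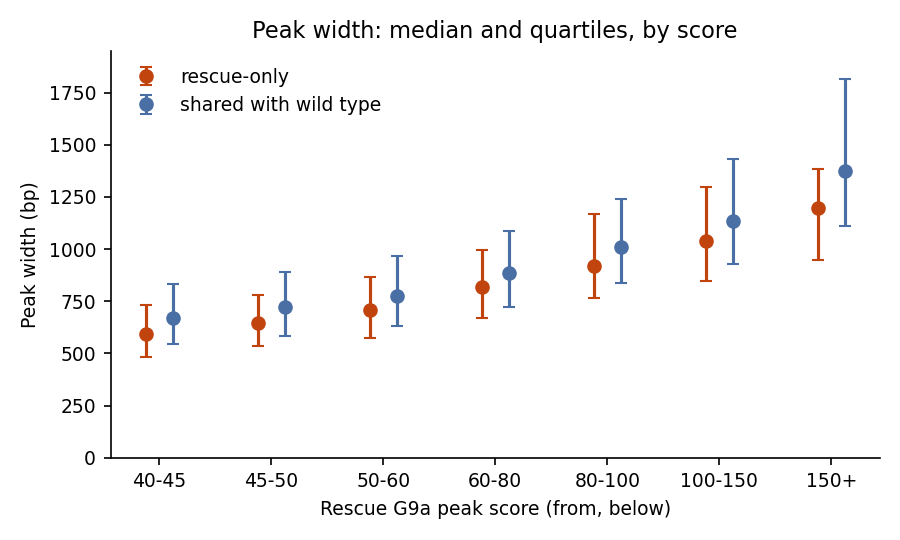
Width of rescue G9a peaks in bp (y axis) by score range (x axis), for rescue-only and shared peaks. Points are medians and bars run from the lower to the upper quartile; the rescue-only median is lower in all 7 ranges, from 594 against 672 bp to 1195 against 1374 bp.

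Rescue-only sites lay farther from a wild-type G9a peak than shared peaks did from their next wild-type peak. A wild-type peak that they did not overlap lay within 50 kb of 86.2% of rescue-only peaks. The value was 94.1% for shared peaks at equal score and 90.8% for all 15446 rescue peaks. The median gap from a rescue-only peak to the nearest wild-type peak was 7863 bp (quartiles 1858 and 25877; 95% interval of the median 7498 to 8297). For shared peaks the gap was taken to the nearest wild-type peak that they did not overlap, and its median at equal score was 2519 bp (691 and 10235). A wild-type peak lay within 10 kb of 55.2% of rescue-only peaks (3250; exact binomial 95% interval 54.0 to 56.5) and of 74.6% of shared peaks at equal score, a difference of -19.3 points. With the blocks of chromosomes 6 and 13 kept, the difference was -17.1 points. The distance uses the same wild-type list that chose the sites, so it is a description too. Wild-type peaks on both sides within 10 kb were found for 17.5% of rescue-only peaks (1028) and 35.6% of shared peaks at equal score. Binomial intervals here and below treat peaks as independent, which neighbouring peaks are not, and cover no variation between cultures.

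The rescue-only peaks ranged from beside a wild-type peak to remote. Of the 5883, 1029 (17.5%) lay within 1 kb of a wild-type peak, 2221 (37.8%) between 1 and 10 kb, 1822 (31.0%) between 10 and 50 kb, and 811 (13.8%) farther away. Their median scores were close, at 48.87, 49.13, 49.325 and 49.65 from the nearest class to the farthest. Median widths were 691, 712, 685.5 and 660 bp. The wild-type peaks nearest to rescue-only peaks scored low, with a median of 30.65 on the wild-type scale, where the lowest score was 20. For shared peaks at equal score, the nearest wild-type peak that they did not overlap had a similar median, 34.53. The 5 most remote rescue-only peaks had scores from 41.31 to 60.36, below the upper quartile of the rescue-only class (60.43). They lay on chr6:75239209-75239469 (score 44.1, 1088028 bp from wild-type G9a), chr5:62874553-62875120 (47.45, 1084352 bp) and chr6:62268642-62269112 (60.36, 886263 bp). The other two were chr18:87590382-87591081 (41.31, 757827 bp) and chr14:94210654-94211135 (44.97, 727962 bp). None of these 5 overlapped an Ezh2 peak.

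Clustering was measured first among rescue peaks of any score. Another rescue peak lay within 10 kb of 74.1% of rescue-only peaks (4361; 73.0 to 75.2) and of 81.3% of shared peaks at equal score, a difference of -7.13 points. With the blocks of chromosomes 6 and 13 kept, the difference was -1.81 points. The difference was larger within 1 kb, at -14.9 points, and within 100 bp it was -7.19 points. Within 1 kb the values were 30.7% and 45.7%, and within 100 bp 7.36% and 14.6%. The median gap to the next rescue peak was 2933 bp (2760 to 3181) for rescue-only and 1370 bp for shared peaks. Within 10 kb, 1111 rescue-only peaks (18.9%) had neither another rescue peak nor a wild-type peak. Of shared peaks at equal score 9.49% had neither, not counting the wild-type peaks that they overlapped. The wild-type part of this measure uses the list that chose the sites. Clustering went with distance to the wild type: 91.9% of rescue-only peaks within 1 kb of a wild-type peak had another rescue peak within 10 kb, and 48.7% of those over 50 kb away did.

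**Figure D3:**
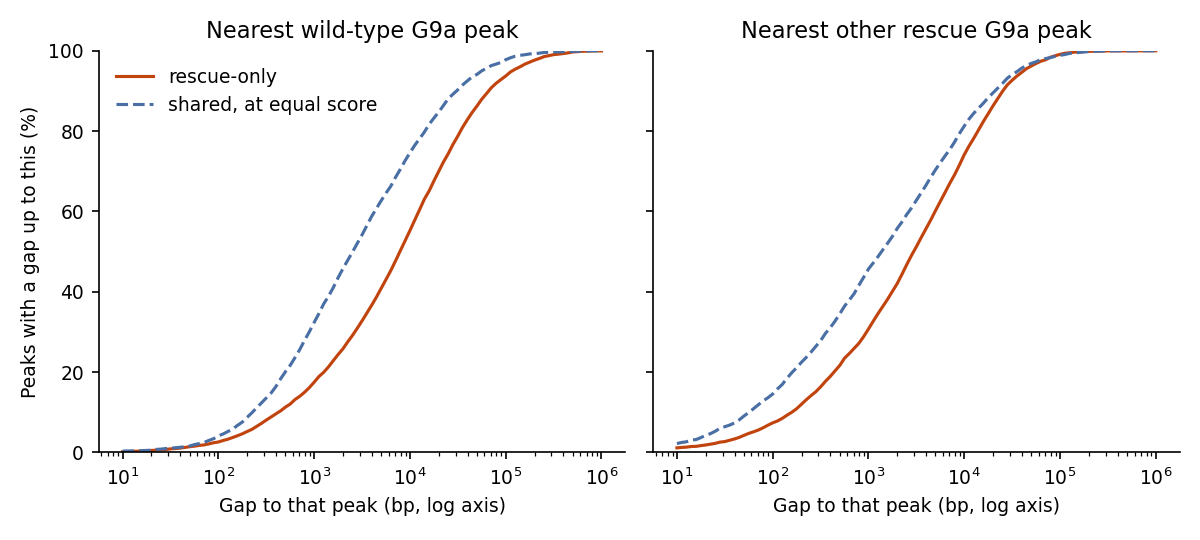
Cumulative percentage of peaks (y axis) by the gap in bp on a log axis (x axis) to the nearest wild-type G9a peak they do not overlap (left) and to the nearest other rescue peak (right). Solid lines are the 5883 rescue-only peaks and dashed lines the shared peaks weighted to equal score; at 10 kb the lines stand at 55.2% and 74.6% on the left and at 74.1% and 81.3% on the right.

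Among rescue peaks of score 40 or more, rescue-only peaks had a rescue-only neighbour more often than shared peaks did. Most neighbours of rescue-only peaks were nevertheless shared peaks. Among 15427 pairs of consecutive peaks, the partner was rescue-only for 43.7% of the rescue-only pair members and 34.6% of the shared ones. Of all members of these pairs, 38.1% were rescue-only. Among the 1301 pairs up to 1 kb apart the values were 47.7% and 16.8%, and 24.3% of all members were rescue-only. A wide wild-type peak can make several rescue peaks shared at once: of the 819 close pairs in which both were shared, 408 (49.8%) met the same wild-type peak. Among the 7750 pairs over 50 kb apart the values were 43.3% and 39.1%, and 40.8% of all members were rescue-only.

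Most rescue-only peaks stood alone among their own class. Shared peaks were not grouped in this way, so the counts describe the rescue-only sites and give no contrast between the classes. Joined over gaps of up to 5 kb, the 5883 peaks formed 5508 groups, of which 5184 were single peaks, 285 were pairs and 39 held 3 or more. Groups of at least 2 contained 11.9% of the peaks (699). The largest held 7 rescue-only peaks between 96467391 and 96480646 on chromosome 3, with a highest score of 69.34, beside 2 wild-type G9a peaks and 2 shared rescue peaks. Next was chr6:100194527-100212080, with 6 rescue-only peaks, a highest score of 204.78 and 1 wild-type peak. Chromosome 3 supplied the next pair as well, from 96652905 to 96661391 (5 peaks, no wild-type peak) and from 96764603 to 96772424 (4 peaks, 1 wild-type peak). The fifth was chr2:170145127-170150164, with 4 peaks and no wild-type peak, and it held 1 Ezh2 peak, of library 1. The other 4 held none from any Ezh2 list.

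Chromosomes 1 and 8 held few rescue-only sites. Chromosome 1 had 64 (0.325 per Mb) and chromosome 8 had 36 (0.273 per Mb), while the other 17 autosomes had 2.07 to 5.41 per Mb, with a median of 2.47. Together these chromosomes made up 13.4% of the length and held 1.70% of the rescue-only peaks, 6.16% of the shared peaks and 20.2% of the wild-type G9a peaks. Of the rescue peaks on them, 14.5% (100 of 689) were rescue-only, against 39.2% on the other 17. The wild-type list was dense there, with 41.7 peaks per Mb on chromosome 1 and 39.4 on chromosome 8. Across the 19 chromosomes the rescue-only share was lower where wild-type peaks were denser (Pearson r = -0.683, Spearman rho = -0.586). Without chromosomes 1 and 8, r was -0.285 and rho -0.475. The rule ties both values, because a denser wild-type list leaves fewer rescue peaks without an overlap. These correlations are therefore descriptions over chromosomes of 1 library pair. Densities per Mb here and below were not corrected for copy number, which is not given for these cells in the sources used here. Shared peaks on chromosomes 1 and 8 were also sparse, at 1.85 and 1.71 per Mb against 3.34 to 8.58 on the other 17. The cause was not tested.

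Chromosome 11 was dense over most of its length. It held 659 rescue-only peaks (11.2% of them, on 4.97% of the length) at 5.41 per Mb. Shared peaks were also dense there, at 8.58 per Mb, and so were wild-type peaks, at 46.1 per Mb. The rescue-only share on chromosome 11 was 38.7%, close to the 38.6% that was the median of the 17 autosomes. Its distal end was sparse: the block from 110000001 to 120000000 had 3 rescue-only and 23 shared peaks (11.5% rescue-only) beside 544 wild-type peaks, and the remaining end from 120000001 to 121843856 had 1 rescue-only peak. This end was singled out after its values were seen. Peaks on chromosome 11 were wider: the rescue-only median was 837 bp, against 635 to 712 bp on the other 18, and the shared median was 1203 bp, against 814.5 to 950 bp. Their rescue-only median score of 49.07 lay inside the range of the other chromosomes (46.4 to 50.7). Chromosome 3 had the highest rescue-only share, 47.3% (493 of 1043; 44.2 to 50.3). On the 16 chromosomes other than 1, 3 and 8 the share ran from 34.9% on chromosome 5 to 42.1% on chromosome 6.

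**Figure D4:**
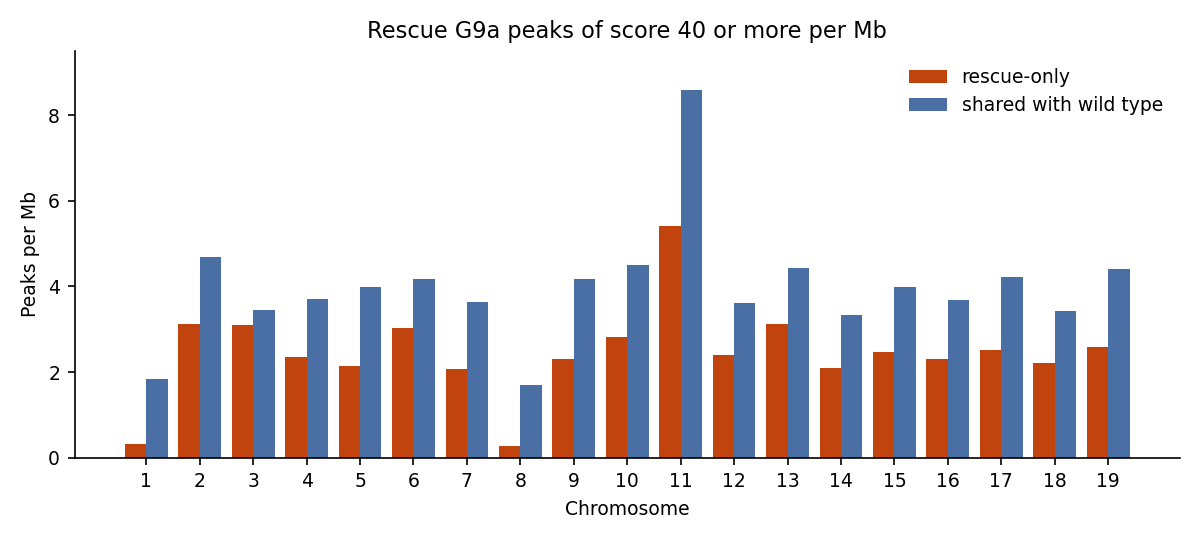
Rescue G9a peaks of score 40 or more per Mb (y axis) on each autosome (x axis), rescue-only and shared, without the left-out blocks of chromosomes 6 and 13. Chromosomes 1 and 8 stand low, at 0.325 and 0.273 rescue-only peaks per Mb, and chromosome 11 stands high in both classes, at 5.41 and 8.58.

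Within chromosomes, a few intervals held many rescue-only sites, and some of these held many shared peaks as well. A full block of 10 Mb outside chromosomes 1 and 8 had a median of 25 rescue-only peaks (10th and 90th percentiles 12 and 42.6). The block from 90000001 to 100000000 on chromosome 3 had 116, against 58 shared peaks, so 66.7% of its rescue peaks were rescue-only. Next were 3 blocks of chromosome 11, starting at 20000001 (98 peaks), 80000001 (77) and 10000001 (76), where 38.1% to 42.5% were rescue-only. These 3 blocks held 148, 125 and 103 shared peaks in the same order. Over all 15446 rescue peaks the rescue-only share was 38.1%, so these blocks were dense in both classes. The fifth was chr6:100000001-110000000, with 74 rescue-only and 67 shared peaks (52.5%). At the low end, the blocks of chr1:90000001-100000000 and of chr8:120000001-130000000 had none, with 18 and 25 shared peaks. The short end block of chr18:90000001-90772031 had none of either class. The blocks of chromosome 1 starting at 1 and at 40000001 had 1 rescue-only peak each.

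The chromosome 3 concentration was narrow. Of its 116 rescue-only peaks, 76 fell between 96 and 97 Mb, from 96024947 to 96839825, and 21 between 95 and 96 Mb. The median over all 1 Mb steps outside chromosomes 1 and 8 was 2. In the step from 96 to 97 Mb 73.8% of the rescue peaks were rescue-only (27 were shared), and in the step from 95 to 96 Mb 87.5% were (3 were shared). The wild-type list had 61 G9a peaks in the first of these steps, so wild-type peaks were not missing there. The rescue list of any score had 265. The rescue-only peaks of this step had a median score of 53.785, a median width of 739.5 bp and a median gap of 7123.5 bp to wild-type G9a. On chromosome 6, 60 rescue-only peaks lay in the step that starts at 100 Mb, beside 48 shared ones, with a median gap of 3010 bp. These intervals were singled out after their values were seen. Of these 3 steps, 1 rescue-only peak between 96 and 97 Mb, 3 of those on chromosome 6 and none between 95 and 96 Mb overlapped an Ezh2 peak of any list. The blocks left out by the rule were denser still: of 1110 rescue peaks of score 40 or more in the chromosome 6 block 834 overlapped no wild-type peak, and of 1093 in the chromosome 13 block 912.

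Ezh2 was not used to choose the sites, and few of them overlapped an Ezh2 peak. A peak of either wild-type Ezh2 library lay under 227 of the 5883 rescue-only peaks (3.86%; exact binomial 95% interval 3.38 to 4.38), against 4.05% of all 15446 rescue peaks. At equal score the shared peaks stood at 2.86%, so the difference was 1.00 point in favour of rescue-only sites. Its interval was 0.523 to 1.53 with the shared value held fixed. The direction depended on the weighting. Without weighting, the shared peaks stood at 4.17% and the difference was -0.314 points. By score range, the rescue-only value was higher in 6 of 7 ranges: it was 3.58% against 2.72% between 40 and 45, 4.10% against 2.84% between 50 and 60, and 5.73% against 2.78% between 80 and 100. At 150 or more it was 8.47% (5 of 59) against 14.3% (143 of 1003). With score and width weighted together the difference was 1.03 points. With the blocks of chromosomes 6 and 13 kept it was 0.287 points, with an interval of -0.106 to 0.716, and for scores of 100 or more it was 1.28 points (-1.62 to 5.18).

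Nearly all of this overlap came from Ezh2 library 1, the longest of the 3 Ezh2 lists. Its peaks overlapped 225 rescue-only peaks (3.82%; 3.35 to 4.35), against 4.01% of all rescue peaks and 2.82% of shared peaks at equal score. Library 0 gave 37 rescue-only peaks (0.629%; 0.443 to 0.866), against 0.699% of all rescue peaks and 0.425% of shared peaks at equal score. The difference with library 0 alone was 0.204 points. The 2 wild-type libraries agreed on 35 rescue-only sites. The lists held 5425 (library 0), 11766 (library 1) and 6198 (knockout) Ezh2 peaks.

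In cells lacking G9a and GLP the Ezh2 overlap of both classes was equal at equal score, and the difference changed sign with the processing. Knockout Ezh2 peaks overlapped 30 rescue-only peaks (0.510%; 0.344 to 0.727), against 0.647% of all rescue peaks. At equal score the shared value was also 0.510%, and the interval of the difference ran from -0.166 to 0.217 points. Without weighting the shared value was 0.732% and the difference -0.222 points (-0.388 to -0.00481). With wild-type G9a peaks counted only from a score of 40, the weighted difference was 0.208 points (0.0527 to 0.400). Whether the difference itself changed between wild-type and knockout Ezh2 was not tested, since the lists differ in length and lowest score. Only 17 rescue-only peaks overlapped all 3 Ezh2 lists, 179 overlapped library 1 alone, and 2 overlapped the knockout list alone. Within 5 kb, a knockout Ezh2 peak lay near 3.14% of rescue-only peaks (185) and 2.28% of shared peaks at equal score. For wild-type Ezh2 in either library the values within 5 kb were 10.3% of rescue-only peaks and 2.45 points less for shared ones. Most of this came from library 1, at 10.1% and 7.79%. Library 0 alone stood at 3.14% (185) and 1.80%, with the same rescue-only count as the knockout list. Within 50 kb of library 1 the classes stood at 34.6% and 34.9%.

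**Figure D5:**
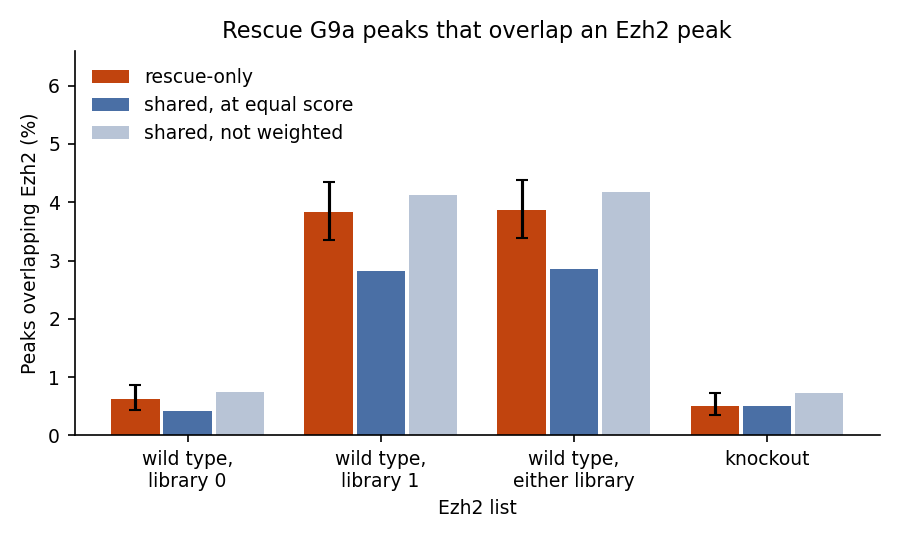
Percentage of rescue G9a peaks overlapping an Ezh2 peak (y axis) in each Ezh2 list (x axis), for rescue-only peaks, shared peaks weighted to equal score, and shared peaks without weighting. Bars on the rescue-only columns are exact binomial 95% intervals; for either wild-type library the columns stand at 3.86%, 2.86% and 4.17%, and for the knockout at 0.510%, 0.510% and 0.732%.

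Among rescue-only sites of score 100 or more, 7.60% (20 of 263) lay on wild-type Ezh2, against 3.86% of all rescue-only sites. Shared peaks also overlapped Ezh2 more often at high score, at 14.3% from 150 against 2.72% between 40 and 45. The rescue-only sites on Ezh2 differed little in median G9a score from those without. Their median score was 51.94 and their median width 766 bp, against 49.155 and 690.5 bp for those without Ezh2. Their median gap to wild-type G9a was 9445 bp, against 7836 bp. Ezh2 overlap changed little with distance to wild-type G9a: it was 3.69% (2.63 to 5.03) within 1 kb, 3.42% (2.71 to 4.26) between 1 and 10 kb, 4.45% (3.55 to 5.50) between 10 and 50 kb and 3.95% (2.71 to 5.52) beyond, with intervals that overlapped. The 225 peaks on library 1 met 237 of its 11766 Ezh2 peaks. These Ezh2 peaks had a median score of 85.1 and a median width of 905 bp, against 58.5 and 720 bp for the whole library 1 list. High Ezh2 scores were found under both classes: the highest library 1 score under a G9a peak had a median of 99.2 for rescue-only and 84.18 for shared peaks on wild-type Ezh2, without weighting. A single Ezh2 peak covered a median of 59.3% of the G9a peak, and 50 of the 225 (22.2%) lay wholly inside one. For shared peaks these values were 55.9% and 16.2% (64 of 395), without weighting.

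The 10 highest-scoring rescue-only sites with Ezh2 in both wild-type libraries included several strong Ezh2 sites. chr14:33409876-33410964 scored 144.79 for G9a and lay wholly inside a library 1 peak. Its Ezh2 scores were 354.53 in library 0, 2583.6 in library 1 and 257.83 in the knockout, and a wild-type G9a peak of score 23.05 lay 143 bp away. chr17:88197035-88198439 scored 142.99, with Ezh2 scores of 788.79, 1992.05 and 56.64 in the same order, and lay 5476 bp from wild-type G9a. chr11:18906835-18908531 scored 105.11 and carried Ezh2 in all 3 lists, as did chr11:74986231-74988448 (94.29), chr14:80169333-80170114 (71.84) and chr3:82933234-82934112 (68.31). The chromosome 14 site from 80169333 had the highest library 1 Ezh2 score of the 10, 3100. The remaining sites had no knockout Ezh2 peak. They were chr14:47017758-47019089 (97.97), chr18:36443892-36444813 (78.84), and chr6:100653413-100654678 (73.99) and from 92890444 to 92891701 (68.17). Their library 0 Ezh2 scores were 52.17, 44.52, 59.97 and 55.85 in this order, in a list whose lowest score was 43.02. A peak missing from the knockout list may be a weak peak below its threshold. Ezh2 scores rank peaks within a list and were not compared between lists.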

How the data were processed

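ChIP-seq peak lists of 5 libraries were used; the 3 input libraries were not analysed here. Cells were fixed with 1% formaldehyde for 10 min, and for G9a first with 2 mM DSG for 45 min, per the labels' protocols. Bowtie 0.12.7, MACS 1.4 and mm9 are named in the submitters' processing notes. The wild-type inputs were pooled as control per the series' design text, which does not say whether the rescue list used them. The deposited lists give each peak's position and a score that the authors' caller defines as 10 times the negative log10 of p; the lowest were 20 in both G9a lists, 43.02 and 30 in wild-type Ezh2 0 and 1, and 43.03 in the knockout. Scores were used only to filter, weight or rank peaks within a list. Depth is unknown, so no interval for read counting was given.

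Samples were grouped by title. Peaks overlapped when they shared at least 1 bp, and gaps were counted between edges. Shared peaks were weighted to the rescue-only scores in 20 ranges; shared peaks above the highest rescue-only score (245) were left out of the weighted values. Positions are 1-based. Sites were named by rank: the 10 highest scores, the 5 most remote, the 5 largest groups, the 10 highest scores with Ezh2 in both wild-type libraries, the 5 densest and the 5 sparsest blocks, and 3 peaks on each side of the threshold. The sites, the left-out blocks and the measures were chosen with earlier results of these data known. Alternatives were other overlap, score, window, weighting and chromosome choices; leaving out chromosome 3 from 90 to 100 Mb was chosen after seeing the data. Python 3.11.15, numpy 2.4.6, pandas 2.3.3, scipy 1.17.1, matplotlib 3.10.9 and chromosome lengths from GenomeInfoDb 1.38.1 were used. Overlaps, gaps and weighting were tested on simulated data.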

Additional observations from a re-analysis of the deposited data

How the results depend on the processing

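Differences are rescue-only minus shared at equal score. Of 114 recomputed values, 61 stayed within the 95% interval of the reported value (or, for the count, within 1.5 times), 52 moved farther and 1 reversed. A change of sign counted as reversed only where both ends of the reported interval had the same sign. The knockout Ezh2 difference did not meet this (-0.166 to 0.217 points), so its changes of sign are not counted as reversed. Width, distance to wild-type G9a and clustering kept their direction in every alternative run. The reversal was the difference in wild-type Ezh2 overlap, 1.00 point as reported and -0.314 points (-0.791 to 0.210) without weighting by score. Without weighting, the width difference was -191 bp, the distance difference -18.0 points and the knockout Ezh2 difference -0.222 points; weighting by score and width together gave a distance difference of -18.0 points.

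With a score of at least 100, 263 sites remained, with a median width of 1069 bp (difference -98 bp), wild-type G9a within 10 kb of 44.9% (-27.1 points), a rescue neighbour within 10 kb of 70.7% (-8.44 points), 1.14% on chromosomes 1 and 8, wild-type Ezh2 at 7.60% and knockout Ezh2 at 1.52%. With the blocks of chromosomes 6 and 13 kept, median width was 726 bp (-61 bp), wild-type G9a within 10 kb 57.3% (-17.1 points), a rescue neighbour 79.9% (-1.81 points), chromosomes 1 and 8 1.31%, and wild-type Ezh2 3.36% (0.287 points). When a wild-type peak within 1 kb counted as shared, the width difference was -60 bp, the next wild-type peak lay within 10 kb of 45.8% (-22.6 points) and a rescue neighbour of 70.4% (-12.3 points). With wild-type peaks of score 40 or more alone, width was 717 bp, wild-type G9a lay within 10 kb of 34.2%, and 2.07% lay on chromosomes 1 and 8. Without chromosomes 1 and 8 the neighbour difference was -8.86 points. Windows of 5 and 50 kb gave 40.8% and 86.2% for wild-type G9a (-21.8 and -7.89 points) and 60.2% and 96.2% for rescue neighbours (-10.2 and -0.626 points); neighbours of score 40 or more gave 33.4% (-9.71 points). Overlap of at least 50% of the shorter peak gave 2.85% for wild-type and 0.315% for knockout Ezh2. Ezh2 scores of at least 100 gave 1.90% and 0.187%. Ezh2 within 5 kb gave 10.3% (2.45 points) and 3.14% (0.861 points). Leaving out each wild-type Ezh2 library gave 0.629% to 3.82%, with differences of 0.204 to 1.00 points. Leaving out chromosome 3 from 90 to 100 Mb moved no value beyond its interval. Causes of these shifts were not tested.

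No paired analysis was possible because each G9a group has 1 library and no result comes from a test.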
